A study of Homo sapiens with 4 samples.

Results

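Mitosis is carried out by a set of proteins that attach chromosomes to the spindle, hold the cell until every chromosome is attached, and then divide the cell. The 40 genes described here encode such proteins: kinetochore and centromere components, the spindle checkpoint, the kinases and cyclins of mitotic entry, spindle motors and cytokinesis factors. They were taken by symbol from a named list rather than by a cut on their values, but that list was chosen with earlier results of these data known. All 40 were found among the 58302 gene rows of the deposited table.

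RNA of BLaER1 cells was sequenced at both stages. BLaER1 is a human line of B cell leukaemia origin in which, at either stage, the myeloid factor C/EBPα is present as a fusion with the oestrogen receptor's hormone-binding part. The differentiated group had 2 libraries from cells kept for 5 to 6 days with IL-3 (10 ng/ml), M-CSF and 100 nM oestradiol, whether the concentration given for IL-3 also holds for M-CSF not being stated. The undifferentiated group had 2 libraries from cells without this treatment. All libraries come from 1 cell line. Separate cultures are not stated for the replicates of a stage, and p-values therefore reflect the spread among these 4 libraries only, part or all of which may be technical.

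As background, entry into mitosis is driven by CDK1 bound to B-type cyclins. Kinetochores, which assemble on centromeric chromatin marked by the histone variant CENPA, bind microtubules through the NDC80 complex. Unattached kinetochores signal through BUB and MAD proteins to inhibit CDC20, the activator of the anaphase-promoting complex, a ubiquitin ligase that marks cyclin B and securin for destruction. The central spindle then directs the cleavage furrow. Transcripts of many of these genes rise and fall with the cell cycle and are abundant in dividing cells, such as leukaemia cells in culture, whereas macrophages divide little in many settings.

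The values are TPM, an abundance per transcript length that sums to the same total in every library and keeps no sequencing depth. The 2 libraries of each stage correlated over genes with r = 0.965 in differentiated and r = 0.947 in undifferentiated cells, against 0.575 to 0.627 between stages. Protein-coding genes held 12.2% and 13.5% of the summed TPM in differentiated libraries, against 23.0% and 15.6% in undifferentiated libraries. RN7SK, a small nuclear RNA, alone held 20.9% and 23.5% in differentiated and 35.5% and 41.7% in undifferentiated libraries. Every level is therefore also given, where it matters, after rescaling to the protein-coding genes alone. All 12 listed B lineage markers were called lower, with a summed level of 15.5 and 19.8 TPM in differentiated libraries, against 653 and 389 TPM in undifferentiated libraries. DNTT and CD24 had the highest means over the 4 libraries. All 12 listed macrophage and monocyte markers, led by CTSB and CD68, were called higher, with sums of 1175 and 1379 TPM in differentiated libraries, against 14.9 and 9.93 TPM in undifferentiated libraries, and 10 of the 12 were under 1 TPM in both undifferentiated libraries and so were tested through the differentiated ones alone. The 10 T and NK cell markers summed to 5.73 and 8.20 TPM in differentiated and 111 and 52.3 TPM in undifferentiated libraries. TRAC made up most of these sums (3.82 and 6.61 TPM in differentiated and 109.9 and 51.5 TPM in undifferentiated libraries), while CD3D, CD3E and GNLY were listed at 0 throughout. NKG7, with the next highest mean over the 4 libraries, had 0.76 and 0.65 TPM in differentiated and 1.02 and 0.47 TPM in undifferentiated libraries. The erythroid list (HBB and HBA2 leading) summed to at most 0.73 TPM, and the fibroblast and epithelial list (COL1A1 and DCN leading) to at most 0.58 TPM in any library. The part of these marker changes in the results on mitotic genes was not tested.

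All 40 mitotic genes were lower in differentiated cells, and for each of them both differentiated libraries lay below both undifferentiated libraries, as was so for 39% of all tested genes. Their levels together came to 38.1 and 39.7 TPM in differentiated libraries, against 792 and 554 TPM in undifferentiated libraries, so that 5.78% of the summed level was left. Of the protein-coding TPM alone, they made up 0.0313% and 0.0295% in differentiated libraries and 0.344% and 0.355% in undifferentiated libraries. The median gene stood at 0.43 and 0.52 TPM in differentiated libraries, against 12.6 and 7.75 TPM in undifferentiated libraries. Because this is RNA of whole cultures, fewer dividing cells and less mitotic RNA per cell cannot be told apart.

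A filter kept the 10180 genes that reached 1 TPM in 2 or more libraries, and these were tested with limma on log2(TPM + 1) values. A call means a p below 0.05 after Benjamini-Hochberg adjustment across the 10180. All 40 mitotic genes passed the filter and were called lower, and 0 were called higher, where 22.8% of all tested genes were called lower and 18.6% higher. Their log2 differences, differentiated minus undifferentiated, lay between -4.46 and -1.62 with a median of -2.83, beside a median of -0.14 over all tested genes. Values given as a number ± its error are these log2 differences with their SE, and the adjusted p-values are those of limma. On the log2(TPM + 1) scale the change of a weakly expressed gene is understated. Of the 40 genes, 30 were under 1 TPM in both differentiated libraries and so passed the filter through the undifferentiated libraries alone. Such genes had to be lower, and a closer background is therefore the 7971 tested genes with at least 1 TPM in both undifferentiated libraries, as all 40 mitotic genes had. Of that background 29.2% were called lower, 49.8% had lower values in both differentiated libraries without overlap, and 8.41% had a log2 difference of -2 or lower, the last being met by 35 of the 40 mitotic genes.

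**Figure D1:**
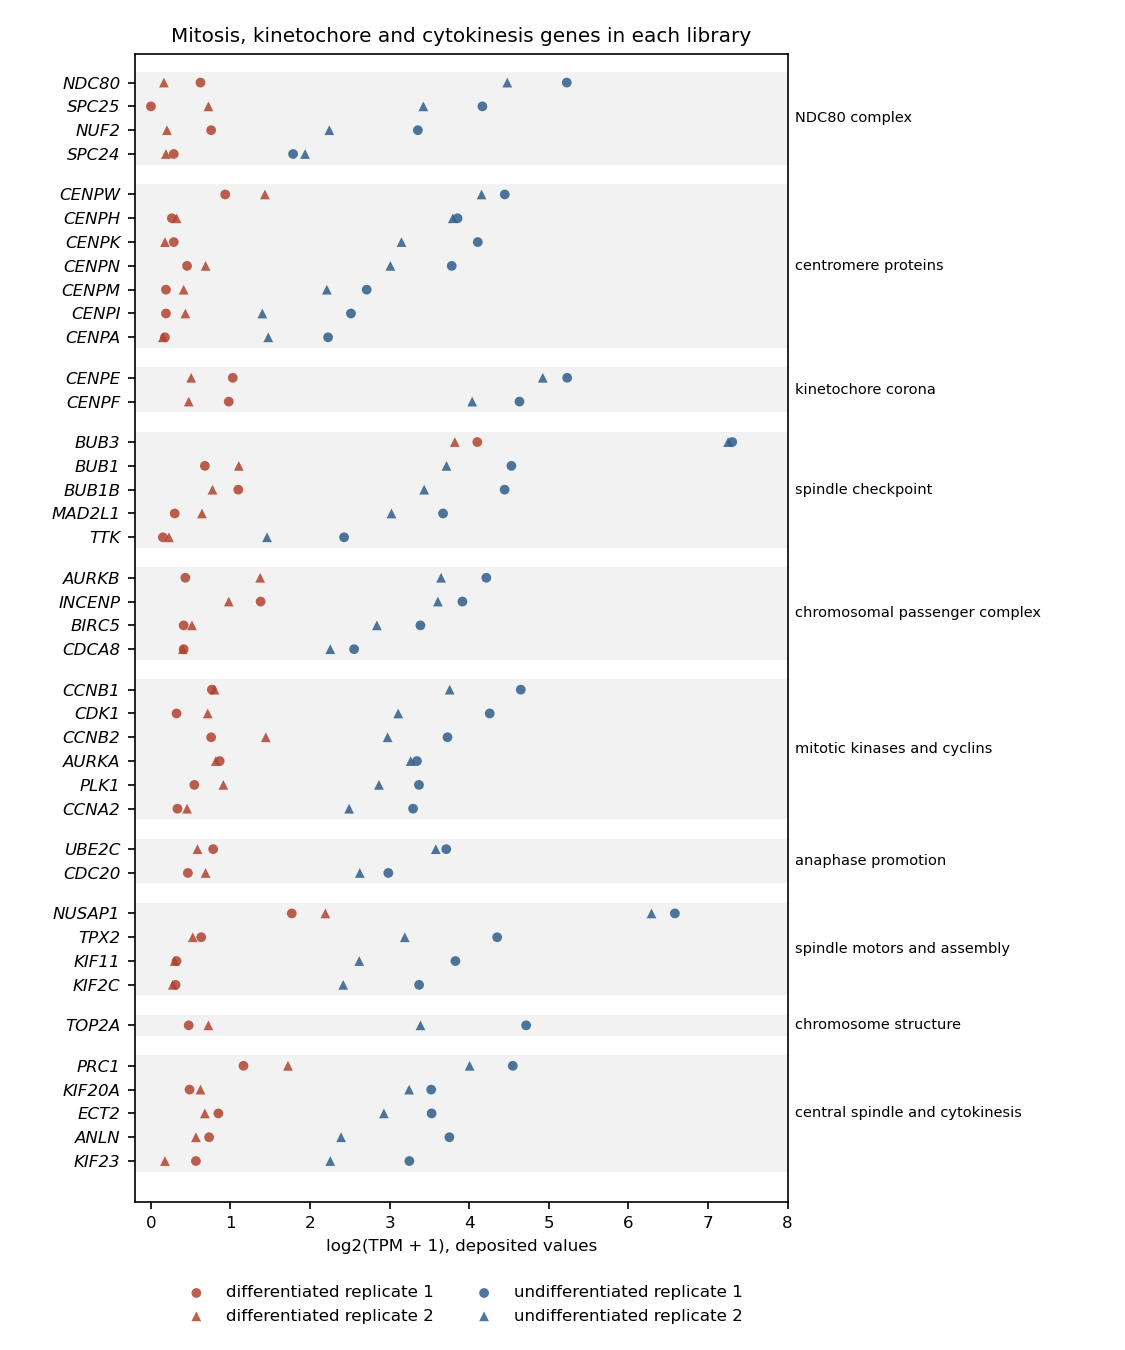
Level of each of the 40 genes in each library as log2(TPM + 1), grouped by role; red points are the 2 differentiated and blue points the 2 undifferentiated libraries. In every row both differentiated libraries lie left of both undifferentiated libraries, and BUB3 and NUSAP1 stand to the right of the other genes in undifferentiated cells.

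Leaving out a differentiated library or the filter removed some calls without turning any direction. Without the filter 28 of the 40 were called lower, where 1.96% of 29186 genes were. Without differentiated replicate 1 and without differentiated replicate 2, 31 of the 40 were called in each case, where 6.66% and 6.7% of the genes then tested were lower.

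The level left in differentiated cells, as mean TPM in percent of the undifferentiated mean, varied from 1.14% for NDC80 to 12.6% for CCNB2, with a median of 4.96%. It was under 5% for 21 genes, from 5 to 10% for 17, and above 10% for CCNB2 and INCENP. Among the 7971 genes with at least 1 TPM in both undifferentiated libraries the median was 65.2%, and 3.54% of them were under 5%. Ranked over all tested genes by log2 difference from the most lowered, the 40 genes held places between 32 (NDC80) and 1070 (SPC24). These values are as deposited. After rescaling over protein-coding genes the level left was higher, from 1.8% to 19% with a median of 7.55%.

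The starting levels differed more than the percentages left. In undifferentiated cells 4 genes averaged above 20 TPM (BUB3, NUSAP1, CENPE and NDC80), 15 averaged 10 to 20 TPM and 21 less than 10 TPM. The order BUB3, NUSAP1, CENPE held without overlap between the libraries of neighbours, and from CENPE downwards each gene's libraries overlapped with those of the next. At the low end SPC24 averaged 2.64 TPM and CENPA 2.73 TPM in undifferentiated cells.

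The promoters of these genes are known for CCAAT boxes, which the factor NF-Y binds, and for cell cycle genes homology regions, short elements bound by the DREAM and MuvB complexes that keep such genes silent outside division. RefSeq promoter windows of build GRCh38.p14, from 250 bases before to 50 after the annotated start, were matched by symbol for 32 of the 40 genes and gave 35 windows, 3 genes having 2. BUB3, TTK, CENPH, CENPM, UBE2C, TPX2, BIRC5 and AURKA had none in the table. Of the genes shown, the cyclin B pair differ in how much RNA is left, NDC80 had the largest log2 difference, and CENPI a log2 difference among the smallest. The windows of these 4 genes are all on the plus strand. They lie at chr5:69166900-69167199 (CCNB1), chr15:59104896-59105195 (CCNB2), chr18:2571307-2571606 (NDC80) and chrX:101100808-101101107 (CENPI). Capitals mark the CCAAT box (reverse complement ATTGG) and the homology region words, which are TTTGAA (reverse complement TTCAAA), the palindrome TTTAAA and the palindrome TTCGAA.
CCNB1: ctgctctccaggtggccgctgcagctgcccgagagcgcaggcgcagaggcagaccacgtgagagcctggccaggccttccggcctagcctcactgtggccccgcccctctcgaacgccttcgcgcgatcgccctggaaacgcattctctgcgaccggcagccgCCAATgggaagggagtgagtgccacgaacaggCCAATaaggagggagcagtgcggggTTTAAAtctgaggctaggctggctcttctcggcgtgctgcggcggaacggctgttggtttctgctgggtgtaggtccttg
CCNB2: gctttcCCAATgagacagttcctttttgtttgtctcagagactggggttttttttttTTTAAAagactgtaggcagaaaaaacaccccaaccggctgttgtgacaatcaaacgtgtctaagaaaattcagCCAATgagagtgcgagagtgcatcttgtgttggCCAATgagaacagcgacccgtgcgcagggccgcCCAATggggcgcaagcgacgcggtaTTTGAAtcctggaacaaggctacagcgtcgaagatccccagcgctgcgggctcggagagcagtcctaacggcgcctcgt
NDC80: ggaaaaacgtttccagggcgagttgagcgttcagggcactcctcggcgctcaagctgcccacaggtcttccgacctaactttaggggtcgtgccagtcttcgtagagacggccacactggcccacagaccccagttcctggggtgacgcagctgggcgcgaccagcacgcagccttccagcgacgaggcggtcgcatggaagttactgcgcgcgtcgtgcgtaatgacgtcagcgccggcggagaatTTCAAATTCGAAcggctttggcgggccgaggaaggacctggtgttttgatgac
CENPI: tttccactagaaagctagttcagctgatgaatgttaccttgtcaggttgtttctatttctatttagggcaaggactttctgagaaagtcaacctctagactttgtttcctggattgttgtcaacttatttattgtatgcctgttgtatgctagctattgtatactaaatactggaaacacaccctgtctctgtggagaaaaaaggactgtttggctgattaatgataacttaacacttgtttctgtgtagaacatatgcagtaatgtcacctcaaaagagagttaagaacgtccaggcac

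Counted from the annotated start, the CCNB1 window holds CCAAT at -87 and -55 and TTTAAA at -30. The CCNB2 window has 4 CCAAT words, at -244, -120, -87 and -54, followed by TTTGAA at -29, and TTTAAA at -193. The NDC80 window has no CCAAT box, and its TTCAAA at -3 is directly followed by TTCGAA at 4. The CENPI window holds none of the words, the only 1 of the 35 windows without any. Its annotated start may not be the start of transcription, so this window may not be a promoter, which was not tested. It does not stand for the genes with small log2 differences. SPC24, with the smallest log2(TPM + 1) difference as deposited, has CCAAT or its reverse complement at -207, -109 and -74. That scale understates the change of weakly expressed genes. SPC24 kept 6.82% of its level and CENPI 7.72%, less than the 12.6% of CCNB2. Over the 35 windows, searched on both strands, CCAAT was found in 27 (77.1%), TTTGAA in 23 (65.7%), TTTAAA in 11 (31.4%) and TTCGAA in 3 (8.57%). The same words were in 35.2%, 10.6%, 8.23% and 1.83% of the 11147 windows of tested genes, and in 34.6%, 15.2%, 12.2% and 1.45% of all 35116 windows. CCAAT together with at least 1 of the other 3 words was in 22 windows (62.9%), against 7.37% of the windows of tested genes and 9.70% of all windows. Different words overlapped at 1 place in the members' windows. A match to these letters describes the sequence and is neither a binding site nor a cause of a change, and the absence of a match says only that the letters are not in that window.

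The NDC80 complex, the rod that binds microtubules at the kinetochore, kept 2.45% of its summed level. NDC80 itself, the microtubule-binding subunit, had 0.54 and 0.12 TPM in differentiated libraries, against 36.4 and 21.3 TPM in undifferentiated libraries. Its log2 difference of -4.46 ± 0.41 (SE, limma, adjusted p = 5.02e-06, n = 2 libraries a stage) was the largest fall of the 40. NUF2, its partner at the microtubule end, had 0.69 and 0.15 TPM in differentiated and 9.23 and 3.73 TPM in undifferentiated libraries (log2 difference -2.32 ± 0.42). SPC25, in the pair that anchors the rod in the inner kinetochore, was listed at 0 and 0.65 TPM in differentiated libraries, against 16.9 and 9.73 TPM in undifferentiated libraries (-3.43 ± 0.42). SPC24, the partner of SPC25, had 0.22 and 0.14 TPM in differentiated and 2.45 and 2.83 TPM in undifferentiated libraries (-1.62 ± 0.25). As deposited this was the smallest log2 difference of the 40, although 6.82% of the SPC24 level was left, against 12.6% for CCNB2. On the protein-coding scale CCNB2 had the smallest log2 difference. The groups did not overlap for any subunit, although the undifferentiated libraries of NUF2 lay further apart than those of SPC24. NUF2 lost its call without differentiated replicate 2 and without the filter (adjusted p from 7.04e-07 to 0.103 over its alternatives). SPC24 lost its call without either differentiated replicate (adjusted p from 1.17e-06 to 0.0967 over its alternatives).

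Centromere proteins kept 4.34% of their summed level. CENPA, the histone variant that marks centromeric nucleosomes, had 0.13 and 0.11 TPM in differentiated and 3.68 and 1.78 TPM in undifferentiated libraries (log2 difference -1.69 ± 0.28, adjusted p = 0.000347). The other 6 belong to the network of proteins that sits on CENPA chromatin through the cell cycle. CENPH had 0.2 and 0.25 TPM in differentiated and 13.5 and 12.9 TPM in undifferentiated libraries, and its difference as deposited was the largest of the 7 (-3.53 ± 0.37, adjusted p = 1.31e-05). On the protein-coding scale CENPK had the largest log2 difference, at -4.69 beside -4.68 for CENPH. CENPK, in the same subcomplex, had 0.22 and 0.13 TPM in differentiated and 16.2 and 7.87 TPM in undifferentiated libraries, of which 1.45% was left. CENPI, also in that subcomplex, had 0.14 and 0.35 TPM in differentiated libraries and reached only 4.71 and 1.64 TPM in undifferentiated libraries (-1.65 ± 0.34). These genes thus share a subcomplex but not a level. CENPM, its remaining member, had 0.14 and 0.33 TPM in differentiated and 5.55 and 3.63 TPM in undifferentiated libraries. CENPN, a reader of CENPA nucleosomes, had 0.37 and 0.61 TPM in differentiated and 12.7 and 7.05 TPM in undifferentiated libraries. CENPW, a histone-fold protein, was the most abundant of the 7, with 0.91 and 1.7 TPM in differentiated and 20.8 and 16.8 TPM in undifferentiated libraries. No groups overlapped, and the highest adjusted p was that of CENPI (0.00181). CENPA lost its call without either differentiated replicate and without the filter (adjusted p from 1.50e-07 to 0.0853 over its alternatives), as did CENPI (adjusted p from 4.43e-06 to 0.141 over its alternatives). CENPM lost its call without differentiated replicate 1 (adjusted p from 4.59e-08 to 0.0714 over its alternatives).

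The kinetochore corona was among the most lowered groups, with 2.68% of its summed level left. CENPE, the kinesin that carries chromosomes to the spindle equator, had 1.04 and 0.42 TPM in differentiated and 36.6 and 29.4 TPM in undifferentiated libraries (log2 difference -4.31 ± 0.39, adjusted p = 4.32e-06). CENPF, a large coiled-coil protein of the corona, had 0.97 and 0.39 TPM in differentiated and 23.8 and 15.4 TPM in undifferentiated libraries (-3.61 ± 0.41, adjusted p = 2.08e-05). For both genes differentiated replicate 1 lay above replicate 2, and both stayed far below the undifferentiated libraries.

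The spindle checkpoint kept 8.52% of its summed level, most of which came from BUB3. BUB3, a propeller protein that brings BUB1 and BUBR1 to kinetochores, had 16.2 and 13.1 TPM in differentiated libraries, against 157 and 152 TPM in undifferentiated libraries (-3.32 ± 0.35, adjusted p = 1.40e-05). It was the most abundant of the 40 in every library and kept 9.48% of its level. BUB1, a kinase of the checkpoint, had 0.6 and 1.15 TPM in differentiated and 22.1 and 12.1 TPM in undifferentiated libraries (-3.23 ± 0.42). BUB1B, which encodes BUBR1, had 1.14 and 0.71 TPM in differentiated and 20.8 and 9.81 TPM in undifferentiated libraries (-3.0 ± 0.43). MAD2L1, the MAD2 protein that sequesters CDC20, had 0.23 and 0.56 TPM in differentiated and 11.7 and 7.13 TPM in undifferentiated libraries (-2.88 ± 0.39). TTK, the kinase MPS1 that starts the signal, had 0.11 and 0.17 TPM in differentiated and 4.38 and 1.75 TPM in undifferentiated libraries (-1.76 ± 0.31, adjusted p = 0.000589). Checkpoint genes thus fell alike in direction but from starting levels that ranged from 3.07 TPM for TTK to 154 TPM for BUB3. TTK lost its call without either differentiated replicate and without the filter (adjusted p from 1.92e-07 to 0.104 over its alternatives).

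The chromosomal passenger complex, which corrects faulty attachments and later acts in cytokinesis, kept 7.53% of its summed level. AURKB, its kinase, had 0.35 and 1.59 TPM in differentiated libraries, which lay further apart than those of its partners, against 17.6 and 11.5 TPM in undifferentiated libraries (-3.03 ± 0.44, adjusted p = 0.000117). INCENP, the scaffold, had 1.6 and 0.97 TPM in differentiated and 14.1 and 11.2 TPM in undifferentiated libraries, and with 10.2% kept more of its level than any other of the 40 but CCNB2. BIRC5, which encodes survivin, had 0.33 and 0.43 TPM in differentiated and 9.46 and 6.16 TPM in undifferentiated libraries (-2.65 ± 0.37). CDCA8, which encodes borealin, had 0.33 and 0.32 TPM in differentiated and 4.87 and 3.77 TPM in undifferentiated libraries (-2.0 ± 0.31, adjusted p = 0.000213). The groups did not overlap for any of the 4. CDCA8 lost its call without either differentiated replicate (adjusted p from 9.16e-07 to 0.0769 over its alternatives), and AURKB lost it without the filter (adjusted p from 1.30e-08 to 0.0503 over its alternatives).

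Mitotic kinases and cyclins kept 6.47% of their summed level. CDK1, the kinase of mitotic entry, had 0.25 and 0.64 TPM in differentiated and 18.1 and 7.62 TPM in undifferentiated libraries (log2 difference -3.16 ± 0.44, adjusted p = 9.71e-05). CCNB1, its cyclin B1 partner, had 0.7 and 0.74 TPM in differentiated and 24.1 and 12.5 TPM in undifferentiated libraries (-3.42 ± 0.42, adjusted p = 3.56e-05). CCNB2, the second B-type cyclin, had 0.69 and 1.72 TPM in differentiated and 12.2 and 6.86 TPM in undifferentiated libraries (-2.25 ± 0.43, adjusted p = 0.00092). Both cyclins fell, with 3.94% left for CCNB1 and 12.6% for CCNB2. CCNA2, the A-type cyclin of S phase and mitotic entry, had 0.26 and 0.37 TPM in differentiated and 8.81 and 4.62 TPM in undifferentiated libraries (-2.50 ± 0.38). PLK1, a kinase of centrosome maturation and spindle assembly, had 0.46 and 0.88 TPM in differentiated and 9.33 and 6.29 TPM in undifferentiated libraries (-2.39 ± 0.39). AURKA, the centrosomal Aurora kinase, had 0.82 and 0.76 TPM in differentiated and 9.15 and 8.61 TPM in undifferentiated libraries, with the 2 libraries of each stage close together (-2.46 ± 0.37). CCNB2 lost its call without differentiated replicate 1 and without the filter (adjusted p from 5.17e-06 to 0.142 over its alternatives). PLK1 lost its call without differentiated replicate 1 (adjusted p from 4.29e-08 to 0.0777 over its alternatives), and CDK1 without the filter (adjusted p from 1.67e-09 to 0.0541 over its alternatives).

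The listed genes of anaphase promotion kept 6.29% of their summed level. CDC20, the activator that the checkpoint holds back, had 0.38 and 0.61 TPM in differentiated and 6.91 and 5.17 TPM in undifferentiated libraries (-2.23 ± 0.35, adjusted p = 0.000254). UBE2C, the ubiquitin-conjugating enzyme that works with the anaphase-promoting complex, had 0.72 and 0.5 TPM in differentiated and 12.1 and 11 TPM in undifferentiated libraries (-2.96 ± 0.38, adjusted p = 4.95e-05). Neither overlapped between stages, and CDC20 lost its call without differentiated replicate 1 (adjusted p from 5.82e-08 to 0.0857 over its alternatives).

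Spindle motors and assembly factors kept 3.41% of their summed level, most of which was NUSAP1. NUSAP1, a microtubule-bundling protein, had 2.41 and 3.57 TPM in differentiated libraries, against 95 and 77.3 TPM in undifferentiated libraries. Its log2 difference of -4.46 ± 0.38 (adjusted p = 2.54e-06) had the lowest p of the 40. KIF11, the kinesin that pushes spindle poles apart, had 0.25 and 0.23 TPM in differentiated and 13.2 and 5.14 TPM in undifferentiated libraries (-2.91 ± 0.43). KIF2C, a kinesin that depolymerises microtubules, had 0.24 and 0.21 TPM in differentiated and 9.34 and 4.34 TPM in undifferentiated libraries (-2.60 ± 0.38). TPX2, which activates Aurora A on the spindle, had 0.55 and 0.44 TPM in differentiated and 19.4 and 8.13 TPM in undifferentiated libraries (-3.19 ± 0.44). Among these 4 genes the level left varied little, between 2.62% for KIF11 and 3.6% for TPX2. TOP2A, the topoisomerase that untangles sister chromosomes, had 0.39 and 0.65 TPM in differentiated and 25.3 and 9.47 TPM in undifferentiated libraries (-3.45 ± 0.46, adjusted p = 6.91e-05). Without the filter, calls were lost for KIF11 (adjusted p from 5.21e-09 to 0.0629 over its alternatives), KIF2C (adjusted p from 2.62e-08 to 0.0562 over its alternatives) and TOP2A (adjusted p from 3.43e-10 to 0.0539 over its alternatives).

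Central spindle and cytokinesis genes kept 7.44% of their summed level. PRC1, which bundles the antiparallel microtubules of the central spindle, had 1.24 and 2.3 TPM in differentiated and 22.4 and 15.1 TPM in undifferentiated libraries (-2.83 ± 0.41, adjusted p = 0.000113). KIF20A, a kinesin that moves the passenger complex there, had 0.4 and 0.54 TPM in differentiated and 10.5 and 8.48 TPM in undifferentiated libraries (-2.83 ± 0.37). KIF23, the kinesin of centralspindlin, had 0.48 and 0.13 TPM in differentiated and 8.5 and 3.77 TPM in undifferentiated libraries (-2.38 ± 0.39). Within this group PRC1, with BUB3 and NUSAP1, was among the 3 genes of the 40 with at least 1 TPM in both differentiated libraries. ECT2, which activates RhoA at the furrow, had 0.8 and 0.6 TPM in differentiated and 10.5 and 6.61 TPM in undifferentiated libraries (-2.46 ± 0.39). ANLN, the actin-binding protein anillin of the contractile ring, had 0.66 and 0.48 TPM in differentiated and 12.5 and 4.24 TPM in undifferentiated libraries, the widest gap between undifferentiated replicates among the 40 as a ratio (-2.42 ± 0.45, adjusted p = 0.000799). Without differentiated replicate 2, calls were lost for ANLN (adjusted p from 7.76e-07 to 0.0939 over its alternatives), ECT2 (adjusted p from 3.78e-07 to 0.0521 over its alternatives) and KIF23 (adjusted p from 2.07e-07 to 0.0734 over its alternatives). ANLN and KIF23 also lost them without the filter.

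**Figure D2:**
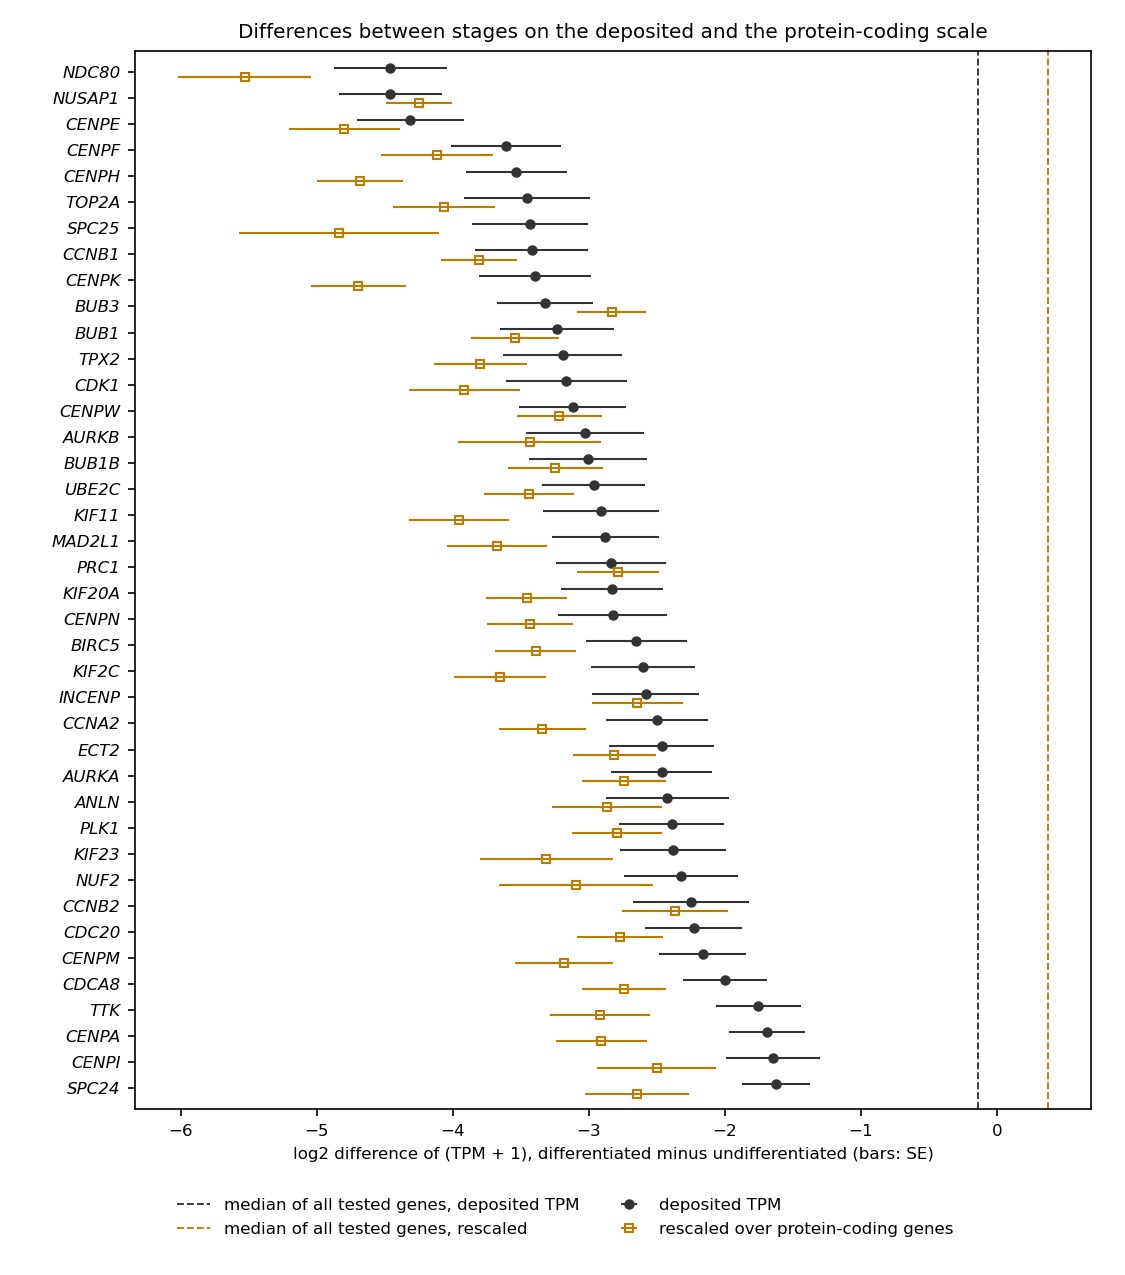
log2 differences of (TPM + 1), differentiated minus undifferentiated, for the 40 genes with bars of 1 SE from limma; filled points use deposited TPM and open squares TPM rescaled over protein-coding genes, and dashed lines mark the medians of all tested genes (-0.14 and 0.37). Genes are ordered by the deposited difference, from NDC80 at the top to SPC24 at the bottom, all 40 lie left of both lines, and BUB3, NUSAP1 and PRC1 are the rows whose rescaled difference is nearer to 0.

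In undifferentiated cells replicate 1 was above replicate 2 for 39 of the 40 genes, SPC24 being the exception, with a median log2 ratio of 0.75 beside 0.75 over all tested protein-coding genes. After rescaling over protein-coding genes, replicate 1 was above for 28 of the 40, with a median log2 ratio of 0.19. The differentiated libraries had no such offset, replicate 1 being higher for 19 genes and replicate 2 for 21. On the rescaled values the 40 genes summed to 313 and 295 TPM in differentiated libraries, against 3443 and 3552 TPM in undifferentiated libraries, or 8.69% left. The percentage left was higher than as deposited in every functional group, from 3.77% for the NDC80 complex to 12.6% for the spindle checkpoint. All 40 were again called lower without overlap, with log2 differences between -5.53 and -2.37 and a median of -3.36, where 18% of 11945 tested genes were called lower, 34.3% higher and the median gene stood at 0.37. As deposited, 2326 of all tested genes were lower and 1890 higher, and after rescaling 2153 were lower and 4102 higher.

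The make-up of the mitotic transcripts was described by shares within a library, which do not depend on how libraries are scaled. The spindle checkpoint genes made up 47.9% and 39.5% of the 40 genes' summed TPM in differentiated libraries, against 27.3% and 32.9% in undifferentiated libraries. BUB3 alone made up 42.4% and 33% in differentiated and 19.8% and 27.4% in undifferentiated libraries. The NDC80 complex had 3.80% and 2.67% in differentiated and 8.21% and 6.78% in undifferentiated libraries, and the spindle motors and assembly factors 9.05% and 11.2% in differentiated and 17.3% and 17.1% in undifferentiated libraries. The kinetochore corona had 5.27% and 2.04% in differentiated and 7.62% and 8.08% in undifferentiated libraries. The passenger complex had 6.85% and 8.33% in differentiated and 5.81% and 5.89% in undifferentiated libraries, and TOP2A 1.02% and 1.64% in differentiated and 3.19% and 1.71% in undifferentiated libraries. In each of these cases the stages did not overlap. For centromere proteins (5.53% and 8.76% in differentiated, 9.75% and 9.32% in undifferentiated libraries) and cytokinesis genes (9.39% and 10.2% in differentiated, 8.13% and 6.89% in undifferentiated libraries) the libraries also stood apart. For centromere proteins, cytokinesis genes, the passenger complex and TOP2A the gap was less than 2 percentage points at the nearest. It was narrowest for TOP2A, at 1.64% against 1.71%. The shares add up to 100% in each library, so a larger share of BUB3 lowers the others and the groups are not separate observations. In all, 8 of the 10 groups' shares did not overlap. The exceptions were mitotic kinases and cyclins, with 8.34% and 12.9% in differentiated and 10.3% and 8.39% in undifferentiated libraries, and anaphase promotion, with 2.89% and 2.79% in differentiated and 2.40% and 2.91% in undifferentiated libraries. An exact two-sided permutation test of 2 against 2 libraries cannot go below p = 0.333, so these shares were not tested.

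**Figure D3:**
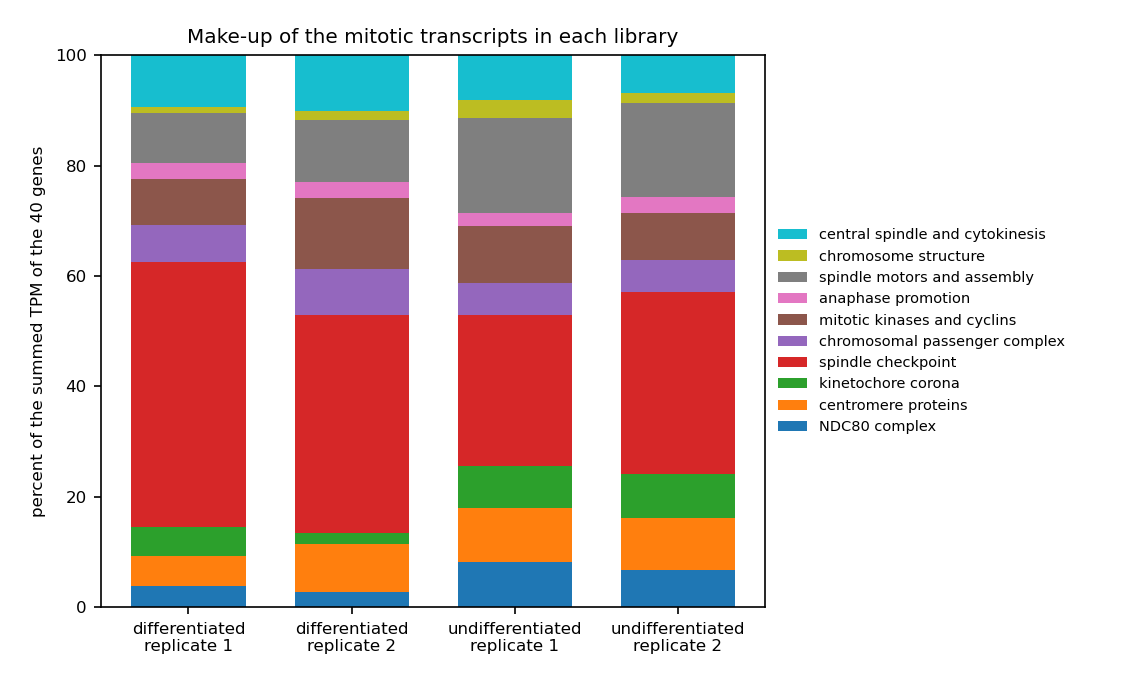
Share of each functional group in the summed TPM of the 40 genes, in percent, with 1 bar per library and differentiated libraries on the left. The spindle checkpoint segment, 47.9% and 39.5% in differentiated libraries against 27.3% and 32.9% in undifferentiated libraries, is the broadest in every bar.

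Ratios of partner genes within a library are likewise free of the scaling and were not tested either. NDC80 stood to NUF2 at 0.783 and 0.80 in differentiated libraries, against 3.95 and 5.71 in undifferentiated libraries. CCNB1 stood to CCNB2 at 1.01 and 0.43 in differentiated libraries, against 1.97 and 1.82 in undifferentiated libraries. CENPE stood to CENPF at 1.07 and 1.08 in differentiated and 1.54 and 1.91 in undifferentiated libraries. CENPW stood to CENPK at 4.14 and 13.1 in differentiated and 1.28 and 2.14 in undifferentiated libraries. Of 10 ratios computed these 4 did not overlap between stages. AURKB to AURKA, at 0.427 and 2.09 in differentiated and 1.92 and 1.34 in undifferentiated libraries, and BUB3 to BUB1, at 26.9 and 11.4 in differentiated and 7.11 and 12.5 in undifferentiated libraries, did overlap, as did SPC25 to SPC24, BUB1 to BUB1B, CDK1 to CCNB1 and NUSAP1 to TPX2. Most values behind the differentiated ratios are under 1 TPM, and with no depth in TPM their counting error is unknown.

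Genes of the same processes outside the 40 were counted in lists, all of whose tested members but LIN37 had at least 1 TPM in both undifferentiated libraries. The background with that property is the 7971 genes of which 29.2% were called lower, with a median log2 difference of -0.43. In both differentiated libraries, 8 of 24 tested kinetochore, 15 of 21 checkpoint, 15 of 23 motor, 9 of 23 DREAM and E2F, 13 of 43 replication and 3 of 17 cohesin and condensin genes were under 1 TPM. These genes passed the filter through the undifferentiated libraries alone and were all called lower. Of 24 tested other kinetochore and centromere genes, 15 were called lower, 0 higher and 9 neither, with a median log2 difference of -1.62. SKA2, of the complex that stabilises kinetochore attachment, had 2.28 and 1.03 TPM in differentiated and 46 and 31.4 TPM in undifferentiated libraries (-3.92 ± 0.41, adjusted p = 1.21e-05), and ZWINT, a kinetochore scaffold protein, had 1.51 and 1.15 TPM in differentiated and 31.1 and 25.6 TPM in undifferentiated libraries (-3.65 ± 0.38, adjusted p = 1.18e-05). Genes that link the centromere to NDC80 were chosen after their values were seen, and differences between them were not tested. KNL1, the platform for BUB proteins, had 0.41 and 0.18 TPM in differentiated and 13.4 and 8.86 TPM in undifferentiated libraries (-3.21 ± 0.39, adjusted p = 3.29e-05). The MIS12 complex, the base on which NDC80 and KNL1 stand, gave no call for the 3 subunits tested. MIS12 had 1.18 and 1.32 TPM in differentiated and 2.17 and 1.35 TPM in undifferentiated libraries (-0.28 ± 0.30, adjusted p = 0.492), and PMF1 had 5.5 and 5.76 TPM in differentiated and 6.36 and 4.61 TPM in undifferentiated libraries (0.04 ± 0.38, adjusted p = 0.94). NSL1 had 4.47 and 3.16 TPM in differentiated and 7.28 and 5.49 TPM in undifferentiated libraries (-0.62 ± 0.39, adjusted p = 0.226), and was called lower without undifferentiated replicate 2 (adjusted p from 0.0385 to 0.858 over its alternatives). DSN1, which did not pass the filter, had 0.63 and 0.26 TPM in differentiated and 2.52 and 0.78 TPM in undifferentiated libraries. A p above the threshold does not show that these levels were equal.

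Other regulators of checkpoint, cohesion release and mitotic entry or exit gave 18 of 21 lower, 0 higher and a median of -1.79. PTTG1, which encodes securin, had 1.77 and 2.05 TPM in differentiated and 32.6 and 24.1 TPM in undifferentiated libraries (-3.32 ± 0.38, adjusted p = 2.36e-05). CKS2, a small CDK-binding subunit, kept more RNA, with 10.1 and 14.5 TPM in differentiated and 117 and 143 TPM in undifferentiated libraries (-3.32 ± 0.37, adjusted p = 1.88e-05). All 23 tested other spindle motors and spindle or cytokinesis factors were called lower, with a median of -2.34. MKI67, the coat of mitotic chromosomes used as a proliferation marker, had 0.88 and 0.62 TPM in differentiated and 34.4 and 19.6 TPM in undifferentiated libraries (-3.95 ± 0.41, adjusted p = 1.13e-05). RACGAP1, the partner of KIF23 in centralspindlin, had 1.04 and 0.79 TPM in differentiated and 23.9 and 12.3 TPM in undifferentiated libraries (-3.25 ± 0.42, adjusted p = 5.18e-05).

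Of 16 subunits, activators and partners of the anaphase-promoting complex, 4 were called lower and 0 higher, with a median of -0.54. ANAPC1, a scaffold subunit, had 3.26 and 2.81 TPM in differentiated and 18.1 and 12.9 TPM in undifferentiated libraries (-2.01 ± 0.39, adjusted p = 0.001), and lost its call without either differentiated replicate (adjusted p from 6.76e-06 to 0.122 over its alternatives). UBE2S, which extends its ubiquitin chains, had 1.24 and 0.62 TPM in differentiated and 6.63 and 4.04 TPM in undifferentiated libraries (-1.70 ± 0.38, adjusted p = 0.00311), and also lost it without the filter (adjusted p from 6.91e-06 to 0.319 over its alternatives). On the protein-coding scale 4 of the 16 genes were called lower and 3 higher.

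Of 23 tested DREAM, B-MYB, FOXM1 and E2F genes, regulators of cell cycle transcription, 14 were called lower and 1 higher, with a median of -1.19. MYBL2, which encodes B-MYB, an activator of mitotic promoters, had 0.54 and 0.67 TPM in differentiated and 24.9 and 14.9 TPM in undifferentiated libraries (-3.66 ± 0.40, adjusted p = 1.70e-05). E2F2, an activator of S phase genes, had 0.13 and 0.65 TPM in differentiated and 12.3 and 8.55 TPM in undifferentiated libraries (-3.05 ± 0.40, adjusted p = 5.52e-05). LIN37, a subunit of DREAM that is needed for its repression, was the gene called higher, with 1.72 and 1.85 TPM in differentiated and 0.11 and 0.25 TPM in undifferentiated libraries (1.24 ± 0.22, adjusted p = 0.000486), a call lost without the filter (adjusted p from 1.30e-05 to 0.0747 over its alternatives). It passed the filter through the differentiated libraries alone, so that it had to be higher, and it was not tested when either of them was left out. FOXM1, another activator of mitotic genes, chosen after its values were seen, had 0.51 and 0.66 TPM in differentiated and 10.1 and 7.52 TPM in undifferentiated libraries (-2.62 ± 0.38, adjusted p = 0.000118).

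DNA replication genes gave 38 of 43 lower, 0 higher and a median of -1.95. MCM4, of the replicative helicase, had 9.58 and 12.7 TPM in differentiated and 387 and 220.2 TPM in undifferentiated libraries (-4.60 ± 0.39, adjusted p = 2.51e-06), and RFC5, of the clamp loader, had 2.28 and 1.5 TPM in differentiated and 61 and 48 TPM in undifferentiated libraries (-4.27 ± 0.38, adjusted p = 3.78e-06). Cohesin and condensin subunits gave 13 of 17 lower, 0 higher and a median of -1.38. The largest falls were in 2 condensin subunits. NCAPH had 0.18 and 0.42 TPM in differentiated and 19.3 and 8.82 TPM in undifferentiated libraries (-3.45 ± 0.43, adjusted p = 4.15e-05), and NCAPG had 0.23 and 0.29 TPM in differentiated and 18.2 and 6.75 TPM in undifferentiated libraries (-3.28 ± 0.45, adjusted p = 8.36e-05), a call lost without the filter (adjusted p from 4.64e-10 to 0.0575 over its alternatives).

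Of 18 housekeeping genes 4 were called lower and 2 higher as deposited, and 3 lower and 7 higher on the protein-coding scale, with a median of -0.26 as deposited. SNRPD3 (9.4 and 11.8 TPM in differentiated, 45.9 and 38.3 TPM in undifferentiated libraries) and PPIA (71.2 and 66.7 TPM in differentiated, 315 and 176 TPM in undifferentiated libraries) had log2 differences of -1.90 and -1.76. B2M (227 and 183 TPM in differentiated, 78.1 and 44.8 TPM in undifferentiated libraries) and ACTB (355 and 389 TPM in differentiated, 181 and 217 TPM in undifferentiated libraries) had log2 differences of 1.77 and 0.91. Each of these 4 calls was lost when at least 1 of the differentiated replicates was left out, with the highest adjusted p at 0.125 for SNRPD3, 0.0861 for PPIA (reached without the filter), 0.113 for B2M and 0.485 for ACTB. Over the lists, in the order given above, the filter mattered: without it 9 kinetochore, 6 checkpoint, 9 motor, 1 anaphase-promoting complex, 4 DREAM and E2F, 16 replication, 2 cohesin and condensin and 1 housekeeping genes were called lower.

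**Figure D4:**
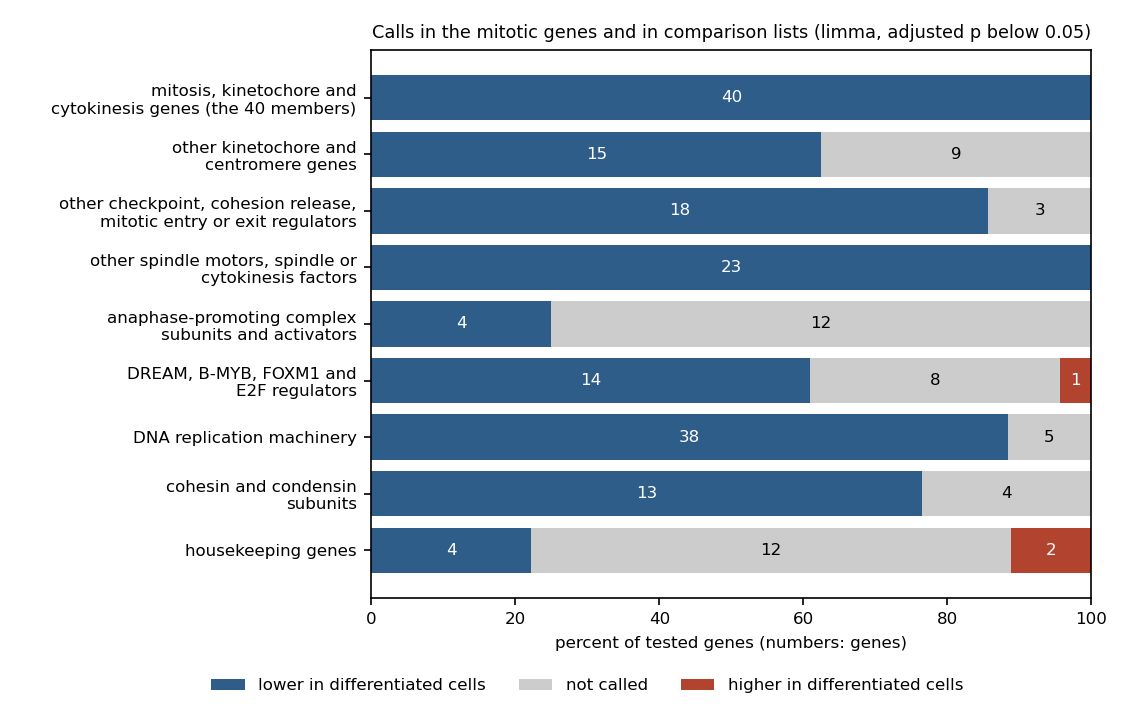
Percent of the tested genes of each list that were called lower (blue), not called (grey) or called higher (red) in differentiated cells, with the number of genes in each segment. The blue segment spans all 40 mitotic genes and all 23 other spindle motors and cytokinesis factors, and covers 4 of 16 genes of the anaphase-promoting complex and 4 of 18 housekeeping genes.

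Reads that fit several genes can be placed wrongly by the estimate behind TPM. Of 10 named pseudogene copies of the 40 genes, 8 were listed at 0 in all 4 libraries, and the highest value of the others was 0.58 TPM, for AURKAPS1 in differentiated replicate 1. In GENCODE release 29, exons of 14 of the 40 genes overlap those of another gene, on the same strand for 4 and on the opposite strand for 11. CENPA, low throughout, shares exon sequence on the same strand with SLC35F6, which had 3.76 and 4.43 TPM in differentiated and 1.33 and 0.82 TPM in undifferentiated libraries. BUB1B shares it with the read-through gene BUB1B-PAK6, listed at 0 in every library. NUSAP1 shares up to 651 bases of an exon with AC087721.2, and PRC1 up to 1013 bases with AC068831.7. Neither of these other genes has a deposited value, so their part could not be checked. The strand setting of the estimate is not stated in the labels, and the values of overlapping genes are uncertain.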

How the data were processed

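Total RNA of 2 differentiated and 2 undifferentiated BLaER1 libraries was isolated with Trizol and a column and made into stranded libraries (NuGEN Encore Complete), per the labels' protocols. The authors deposited TPM values in 1 table of 58302 genes. Trimmomatic, STAR and RSEM are named in the submitters' processing notes, with no versions, settings or build given in the sources used here. TPM keeps no depth: sequencing depth and counting error are unknown. Of the value columns, 0 were left out.

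Groups follow the labelled stage. The 10180 genes that reached 1 TPM in 2 or more libraries were tested on log2(TPM + 1) with limma 3.58.1 in R 4.3.3 (moderated variances with a mean-variance trend, two-sided, 2 residual and 10.9 prior degrees of freedom), and p-values were Benjamini-Hochberg adjusted over all tested genes. The fit was tested on simulated data. Rescaling over protein-coding genes used gene types of GENCODE release 29, which holds 58039 of the 58302 IDs and need not be the authors' annotation.

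The members, lists and tests were chosen with earlier results of these data known. All 40 members are reported. In each comparison list the 2 called genes with the largest difference in each direction are named, and of each cell type marker list the 2 with the highest mean TPM. Other genes were chosen after their values were seen. Alternatives were 4 other scalings, 2 other pseudocounts, no filter and a filter of 5 TPM, a limma fit without trend and a robust one, a GC correction, the replicate number as a block, and each library left out.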

Additional observations from a re-analysis of the deposited data

How the results depend on the processing

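Over 18 alternatives the 40 members gave 649 values, of which 619 kept the call, 30 kept the direction but lost the call, and 0 reversed. All 40 members stayed called lower under every scaling, pseudocount, variance setting and GC correction. Without the filter 28 of 40 were called (12 others had adjusted p from 0.0503 to 0.14), where 1.96% of 29186 genes were called lower. With a filter of 5 TPM 29 of the 29 that passed it were called, where 31.5% of 4511 genes were. Leaving out 1 library gave 10 to 31 members: 31 without either differentiated replicate, and 10 of the 10 still tested without either undifferentiated replicate, since fewer genes then pass the filter. Keeping the 10180 genes was an alternative chosen after seeing the data. Without undifferentiated replicate 1 the median over the 40 members was then -2.47, beside 0.15 over all tested genes. A stage left with 1 library is assumed to vary like the other.

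The members' median log2 difference (-2.83) became -3.36 rescaled over protein-coding genes, -3.54 rescaled without the most abundant RNAs, -4.0 with a pseudocount of 0.1, -3.35 with 0.5, -3.33 to -2.71 with 1 library left out, and -2.47 without undifferentiated replicate 1 with the same genes tested. By construction rescaling and smaller pseudocounts widen differences of low values. Over all genes 2326 calls lower became 573 without the filter, 1420 with the 5 TPM filter, 594 to 3187 with 1 library left out and 3818 without undifferentiated replicate 2 with the same genes tested. The 1890 calls higher became 4102 rescaled over protein-coding genes, 3089 rescaled without the most abundant RNAs, 687 without the filter, 1016 with the 5 TPM filter, 2836 with the GC correction, and 209 to 2985 with 1 library left out. The cause of these shifts was not tested.

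Calls lower in the lists depended on the filter. Without it the counts were 9 for kinetochore and centromere genes, 6 for checkpoint and entry or exit regulators, 9 for spindle motors and cytokinesis factors, 1 for the anaphase-promoting complex, 4 for the DREAM and E2F list, 16 for replication, 2 for cohesin and condensin and 1 for housekeeping genes. With the 5 TPM filter they were 5 of the 5 still tested for the checkpoint list and 11 of 11 for the motors. For the anaphase-promoting complex they were 2 of 9 and for the DREAM list 6 of 10. Leaving out an undifferentiated library also cut the number of genes tested in several lists, so that the counts then mix lost calls with genes no longer tested. With 1 library left out they ran from 7 to 11, 3 to 11, 8 to 16, 0 to 10, 3 to 8, 15 to 30, 3 to 12 and 0 to 8 in the order above. With the same genes tested, the anaphase-promoting complex had 9 without undifferentiated replicate 2, and housekeeping genes 2 without undifferentiated replicate 1. Calls higher depended on the scaling. Rescaled over protein-coding genes there were 2 in the checkpoint list, 3 in the anaphase-promoting complex, 2 in the DREAM list, 1 in cohesin and condensin and 7 among housekeeping genes. Under median-of-ratios scaling there were 2, 1 and 1 in the last 3 of these lists, and under quantile normalization 2, 1 and 4. With the GC correction there were 1 in the anaphase-promoting complex, 4 in the DREAM list, 1 in cohesin and condensin and 5 among housekeeping genes. Without the filter the DREAM list and housekeeping genes had 0, and the DREAM list had 0 with the 5 TPM filter. Without undifferentiated replicate 1 and with the same genes tested the DREAM list had 4 and cohesin and condensin 1. With 1 library left out calls higher ran from 0 to 4 in the DREAM list, 0 to 1 in cohesin and condensin and 0 to 4 among housekeeping genes.

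Whether same-numbered libraries were handled together is not known. Their deviations from the stage means correlated at -0.02 over genes. This shows no pattern over genes shared by replicate number. A correlation cannot see a shift that is equal for all genes, and a single one cannot show that the libraries were unpaired. With the replicate number as a block, 40 members were called lower, with 2036 calls lower and 1730 higher over all genes, and 1 housekeeping gene was called higher. The unknown depth leaves the counting error of values under 1 TPM unknown, and with 2 libraries a stage the model borrows most of its variance estimate from other genes.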
